A study of Mus musculus with 36 samples.

Results

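Cysteine transfer RNA genes were examined in RNA sequencing libraries of fetal mouse neural stem cells (NSCs) and of the extracellular vesicles (EVs) that these cells secreted. The members were the 54 features, of 40205 in the count tables, whose names begin with n-TC, the prefix used there for nuclear tRNA genes of cysteine. All 54 carry the anticodon GCA in their names. A further row, n-Tcgca44, is written with a lower-case c, was not taken by that prefix and had 0 counts. Counts were present for 8 of them and 46 had a count of 0 in all 36 libraries. The 8 loci were measured in cells at a summed 90.2 ± 59.2 CPM (the count divided by the library total, times 1000000) and in EVs at 6.01 ± 2.99 CPM (SD, n = 18 each).

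The cultures were neurospheres from the dorsal telencephalon of gestational day 12.5 fetuses of 3 pregnancies (sets 3, 4 and 5). The mice are labelled C57BL/6J and wild type, and the study's methods name the Ai14 reporter line. Tissue of a pregnancy was pooled by fetal sex into 1 female and 1 male culture, and each culture was split over 0, 120 and 320 mg/dL ethanol (0, 26 and 70 mM) and kept for 5 days. Each culture and dose gave 1 library from pelleted EVs and 1 from the cells, which makes 12 groups of 3 libraries. The groups were female and male EVs at 0, 120 and 320 mg/dL and female and male cells at the same doses. All groups share the strain, the age, the neurosphere medium and passages 7 to 10. EV and cell RNA were purified with different kits of one maker, a difference that cannot be told apart from location. Sequencing depth ran from 959217 to 5509952 counts for EV libraries and from 26566061 to 55282322 for cell libraries, and the 6 shallowest EV libraries had at most 1605442.

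The cell label was checked against marker genes. Of 10 neural stem cell markers 9 had a median of at least 1 CPM in cells, where their sum was 3156 to 6030 CPM, against 284 to 1189 CPM in EVs. The exception was Sox2, which had 0 counts in every library. None of 4 microglial, 3 endothelial, 3 fibroblast and 4 erythroid markers had a cell median of 1 CPM, although the 5 neuron markers did and summed to 569 to 1260 CPM in cells, as did 6 of 7 astrocyte and oligodendrocyte markers with a sum of 120 to 446 CPM. Of the neuron markers, Map2 had a cell median of 772 CPM, and Tubb3, Dcx, Rbfox3 and Snap25 had 6.25 to 8.22 CPM. In bulk libraries, fewer cells of a type and less RNA per cell cannot be told apart.

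Transfer RNAs carry amino acids to the ribosome and read codons of the messenger RNA through a 3-base anticodon. RNA polymerase III transcribes their genes from promoter elements inside the gene, RNase P and RNase Z trim the ends of the precursor, and a CCA end is added before the tRNA is charged. Cysteine tRNAs read the codons UGC and UGU and are charged by cysteinyl-tRNA synthetase. Mammalian genomes hold many copies of each nuclear tRNA gene, and copies with the same sequence yield mature molecules that cannot be traced back to 1 gene.

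The sequences of the loci are shown because the results turn on which of them can be told apart. They were read from GRCm39 by a search for tRNA cloverleafs with the anticodon GCA between the protein-coding genes that flank each member in RefSeq. The search found 59 such sequences, all 9 members outside the long array described below among them. Each sequence is 72 bases long, capitals mark the anticodon, and positions are counted from 1 at the 5′ end of n-TCgca56, where the anticodon takes positions 33 to 35.
n-TCgca56: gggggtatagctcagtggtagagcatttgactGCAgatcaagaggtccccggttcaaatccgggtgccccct
n-TCgca18: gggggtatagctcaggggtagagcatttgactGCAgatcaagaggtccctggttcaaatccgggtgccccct
n-TCgca51: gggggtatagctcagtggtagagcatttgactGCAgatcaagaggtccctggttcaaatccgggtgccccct
n-TCgca52: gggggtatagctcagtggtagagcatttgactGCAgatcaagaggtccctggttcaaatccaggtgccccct
n-TCgca47: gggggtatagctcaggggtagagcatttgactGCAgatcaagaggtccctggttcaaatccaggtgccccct
Relative to n-TCgca56, n-TCgca18 carries T16G and C50T, n-TCgca51 carries C50T alone, n-TCgca52 carries C50T and G62A, and n-TCgca47 carries T16G, C50T and G62A.

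Some of the loci are identical copies over their whole length. The sequence of n-TCgca56 (chr11:97687898-97687969, plus strand) occurs 4 times in GRCm39, as n-TCgca56, n-TCgca54 (chr11:97879749-97879820, minus strand), n-TCgca55 (chr11:97879072-97879143, minus strand) and n-TCgca57 (chr6:47955931-47956002, plus strand). The sequences of n-TCgca18 (chr11:97660655-97660726, minus strand) and n-TCgca51 (chr11:97689732-97689803, minus strand) each occur once. n-TCgca52 (chr17:71906266-71906337, plus strand) and n-TCgca53 (chr9:104281255-104281326, plus strand) are the 2 copies of another sequence. The sequence of n-TCgca47 (chr9:104277319-104277390, plus strand) occurs 29 times, 28 of them in the long array. A read that covers part of a locus can match further loci. n-TCgca47 differs from n-TCgca18 by G62A alone, and n-TCgca18 differs from n-TCgca51 by T16G alone. The part of such reads in the counts of n-TCgca18 and n-TCgca51 was not tested. A read that lies wholly inside a repeated sequence cannot be assigned to 1 of its copies, and how the authors' counting treated such reads is not given in the sources used here, so the split of counts among n-TCgca54, n-TCgca55, n-TCgca56 and n-TCgca57 is uncertain, and likewise that between n-TCgca52 and n-TCgca53.

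Most of the genome's cysteine tRNA genes had no counts. RefSeq places 45 of the 54 members inside the long noncoding RNA gene Gm16630, between Zfp746 and Krba1, and none of the 45 had a count. The search found 50 cloverleafs between these genes, 22 on the plus and 28 on the minus strand, with 23 distinct sequences, of which 1 occurs 28 times. Gm16630 itself had 147 counts in EVs and 970 in cells over all libraries. Of the 9 members outside the array, which RefSeq places under no other gene, 8 had counts and n-TCgca55 had 0. On GRCm39, GENCODE places n-TCgca55 inside an exon of the lncRNA Gm74242 on the same strand and n-TCgca54 inside an intron of the lncRNA Gm71812 on the opposite strand, and it places none of the other 7 inside a gene.

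The same division held for the other nuclear tRNA genes, of which 341 were in the tables, n-Tcgca44 among them. Of 88 that RefSeq places under another gene, 4 (4.55%) had counts, and of 247 that lie free of other genes 229 (92.7%) had counts. Of the marker and pathway genes looked up here, 5 had 0 counts in all libraries. RefSeq places 4 of these, Sox2, P2ry12, Ang and Rpp14, inside Sox2ot, Med12l, Rnase4 and Htd2, and 1 inside no other gene. A count of 0 over all EV libraries allows up to 0.0511 CPM and over all cell libraries up to 0.00445 CPM, for counting error only. The part that overlapping genes had in the 46 members without counts was not tested.

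The question of EVs against cells was which cysteine tRNA loci differed between vesicles and the cells that secreted them. All 8 measured loci had lower CPM in EVs, and the loci differed widely among themselves. Among the 5 loci that could be tested, the 2 largest differences belonged to loci of the 4-copy sequence, n-TCgca56 and n-TCgca57, and the 2 smallest to the loci with sequences of their own, n-TCgca18 and n-TCgca51. The part that the counting of reads from repeated sequences had in this order was not tested. Over all 8, the counts of the 18 EV libraries came to 324 and those of the 18 cell libraries to 57722.

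n-TCgca56 lies between Rpl23 and Lasp1 and had the most counts in cells. Its level in cells was 13.2 to 141 CPM (median 24.4), and in EVs 0 to 0.889 CPM (median 0). The groups did not overlap. The share of all features without overlap of EVs and cells was not computed, so this and the cases below are descriptions only. Only 13 counts were present over all EV libraries, in 8 of 18, against 23484 in cells, which gives a level 158 times higher in cells (95% exact counting interval of the pooled ratio 92.1 to 296). On the log2 scale EVs differed from cells by -6.83 (SE 0.43, adjusted p = 7.82e-17 by edgeR's quasi-likelihood test), and by -6.21 without the female cell library of set 3 at 320 mg/dL.

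n-TCgca18, between Cwc25 and Rpl23 on the same stretch of chromosome 11, was nearly as high in cells and by far the highest in EVs. It had 13.5 to 86.5 CPM in cells (median 25.2) and 0.646 to 10.4 CPM in EVs (median 3.76), again without overlap. It was the only locus with counts in all 18 EV libraries, 230 in all. The pooled ratio of cells to EVs was 7.73 (6.79 to 8.84) and on the log2 scale the difference came to -2.45 (SE 0.24, adjusted p = 1.51e-11).

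The other measured loci of the 4-copy sequence differed more than n-TCgca18. n-TCgca54, between Plxdc1 and Arl5c, had 5.53 to 27.6 CPM in cells (median 9.77) and 0 to 3.13 CPM in EVs (median 0.830), which did not overlap. Its pooled ratio was 12.8 (9.62 to 17.6) and its log2 fold change -3.20 (SE 0.32, adjusted p = 1.74e-11). n-TCgca57, between Zfp956 and Zfp777 on chromosome 6, had 2.67 to 29.2 CPM in cells and a single count in each of 3 EV libraries (highest 0.623 CPM), without overlap. The ratio of cells to EVs was 157, with a counting interval from 53.6 to 760, and the log2 difference -6.69 (SE 0.51, adjusted p = 1.35e-14).

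n-TCgca51, the neighbour of n-TCgca56, showed the smallest difference of the 5 tested loci. It had 0.921 to 9.41 CPM in cells (median 1.66) and 0 to 1.25 CPM in EVs (median 0.410), so that its groups overlapped. The pooled ratio was 3.83 (2.7 to 5.62), and the log2 fold change of -1.49 (SE 0.38, adjusted p = 0.000461) was -0.85 without the female cell library of set 3 at 320 mg/dL. In the control libraries alone it missed the threshold (log2 fold change -1.43, adjusted p = 0.0577).

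The remaining 3 loci were at the limit of detection in cells and at 0 in EVs, and did not pass the filter on low counts. n-TCgca52 had 116 counts over the 18 cell libraries, n-TCgca53 87 and n-TCgca47 78. With the floor of 3 counts over all EV libraries, they were at least 3.37-fold, 2.53-fold and 2.27-fold lower in EVs. These bounds lie below the pooled ratio of n-TCgca51.

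Of the 5 tested members, 5 were lower in EVs (adjusted p under 0.05), where 81.8% of all 17758 features tested were called and 43.7% were called lower, so that the number of calls says little by itself. Of the 5, only n-TCgca18 also passed the filter in the fits of EV libraries alone. n-TCgca56 and n-TCgca57 had at most 4 counts and 1 count in an EV library, against a minimum of 10. They passed through the cell libraries, where they were high, so their direction is no support by itself. n-TCgca54 and n-TCgca51 had at most 7 and 5 counts in an EV library, also under that minimum, and the same limit holds for their direction. The size of the change is the plainer description, though for all but n-TCgca18 it rests on few EV counts. The median log2 fold change of the 5 was -3.20, that of 170 other tested nuclear tRNA genes was -2.48, with 154 lower and 4 higher, and that of all features was -0.14. By amino acid, the median was lower than for cysteine in glutamine (-4.48), proline (-4.32), tyrosine (-4.25), lysine (-3.59) and serine (-3.36). In the other amino acid groups it was higher than for cysteine. With median-of-ratios size factors the median of all features was 0.22 and with library totals -0.65, and all 5 members were lower under either.

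**Figure D1:**
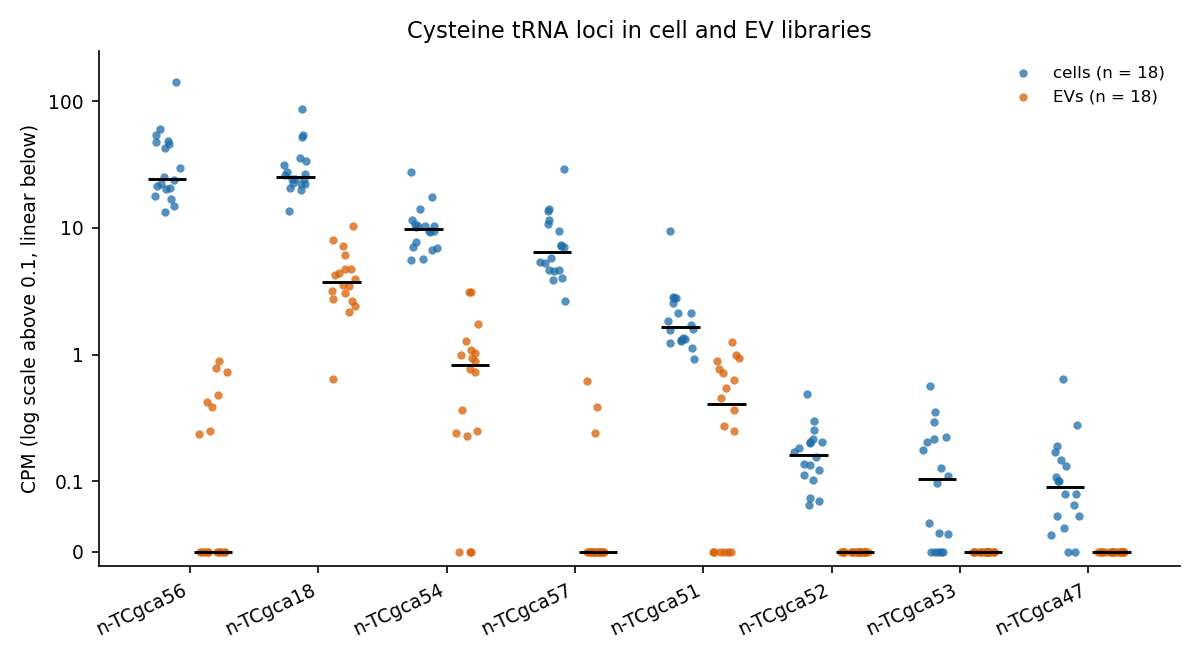
CPM of the 8 cysteine tRNA loci with counts (horizontal axis) in the 18 cell and 18 EV libraries. Points are libraries, bars are medians, and the vertical axis is logarithmic above 0.1 and linear below. The EV points of n-TCgca56 lie between 0 and 0.889 CPM and its cell points between 13.2 and 141 CPM, while the EV points of n-TCgca18 reach 10.4 CPM.

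The make-up of the cysteine tRNA counts thus differed between the compartments. n-TCgca56 shares its whole sequence with other loci, and n-TCgca18 shares only parts of its own. Reads with several alignments may therefore enter both loci differently, which was not tested. n-TCgca54, with the sequence of n-TCgca56, had a pooled ratio of cells to EVs of 12.8, against 158 for n-TCgca56. n-TCgca18 held 35.3% of all cysteine tRNA counts in cells and 71% in EVs, and n-TCgca56 held 40.7% in cells and 4.01% in EVs. By library, the share of n-TCgca56 was 28.8 to 47.9% in cells (median 38.1) and 0 to 16.7% in EVs (median 0), without overlap. The share of n-TCgca18 was 25.8 to 48.0% in cells (median 36.9) and 44 to 100% in EVs (median 75.7). n-TCgca18 was the leading locus in 18 of 18 EV libraries, while in cells it led in 8 and n-TCgca56 in 10. The EV shares rest on 1 to 34 counts per library.

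Both loci were set side by side in the 6 cultures, with the counts of the 3 doses added. In EVs the cultures had 13 to 59 counts of n-TCgca18 and 0 to 5 of n-TCgca56, and in 2 male cultures n-TCgca56 had none. The log2 ratio of n-TCgca56 to n-TCgca18 (0.5 added to each count) averaged 0.12 in cells and -4.31 in EVs. It was lower in EVs in 6 of 6 cultures, with a mean difference of -4.42 (SD 1.97, n = 6). This pair was chosen after the values of the loci had been seen, so the difference is a description with no test. For n-TCgca18 the cells held 4.97 to 12.5 times the EV level in the 6 cultures, and for n-TCgca56 42.0 to 178 times in the 4 cultures with a count in EVs.

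**Figure D2:**
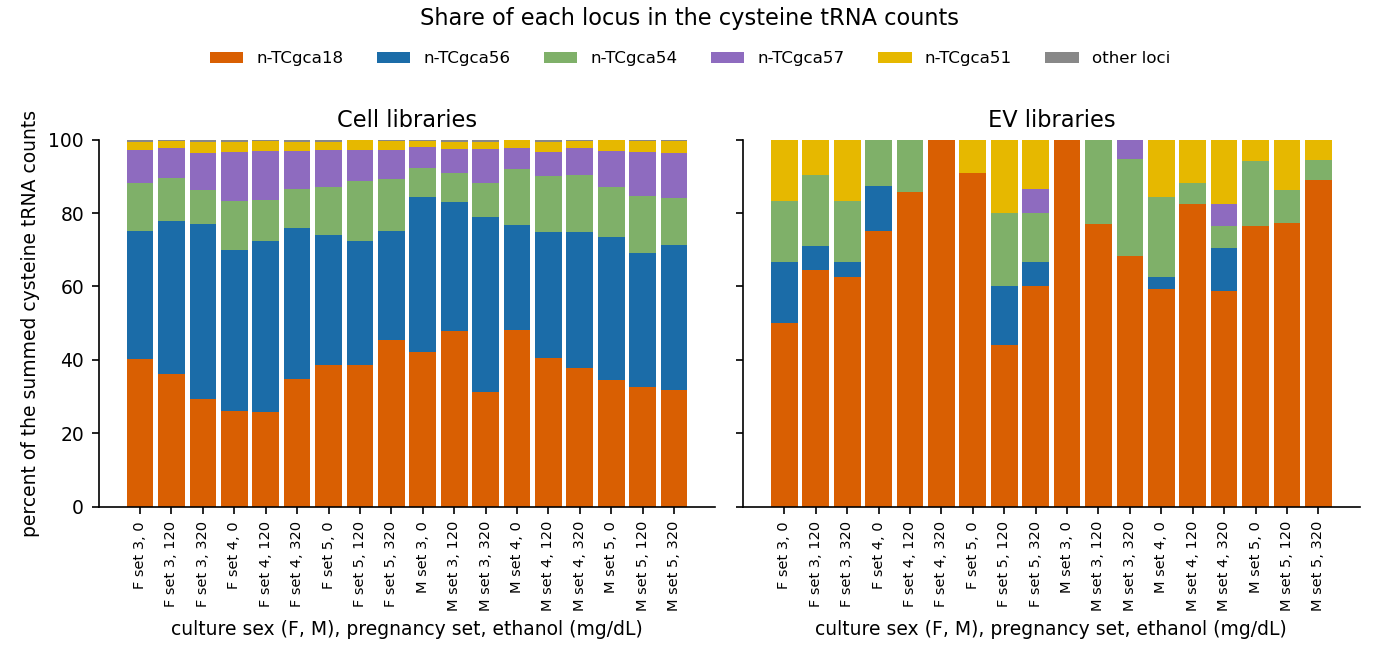
Percent of the summed cysteine tRNA counts at each locus (stacked bars, vertical axis) in each cell library (left) and EV library (right), ordered by sex, pregnancy set and ethanol dose. n-TCgca18 is the largest segment in 18 of 18 EV libraries, and n-TCgca56 spans 28.8 to 47.9% of every cell bar but at most 16.7% of an EV bar.

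In the sum of all loci, each of the 18 EV libraries had a lower level than the cell library of the same culture and dose. Summed levels were 42.8 to 296 CPM in cells (median 67.6) and 0.646 to 13.6 CPM in EVs (median 5.72), and the EV level was 8.14 ± 4.72% of the cell level (SD, n = 18 pairs), from 0.629 to 19.1%. The lowest EV value was 1 count in the female library of set 4 at 320 mg/dL, whose exact Poisson interval runs from 0.0164 to 3.6 CPM. Leaving out n-TCgca56, the EV level was 12.5 ± 7.09% of the cell level.

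Cysteine tRNA genes also took a smaller part of all nuclear tRNA counts in EVs. Their share was 2.19 to 4.15% in cells and 0.135 to 2.09% in EVs, with no overlap. Among 21 amino acid groups of nuclear tRNA genes with counts, cysteine had the third lowest EV level relative to cells by the ratio of mean summed CPM, 6.66%, after tyrosine at 4.70% and glycine at 6.26%. Aspartate was highest at 111%. By the prefix used here, which leaves out n-Tcgca44, cysteine had the most rows of these groups, 54, and the 11th highest level in cells. The share of its copies with counts, 14.8%, was the lowest among groups with counts, ahead of histidine with 30.0%.

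**Figure D3:**
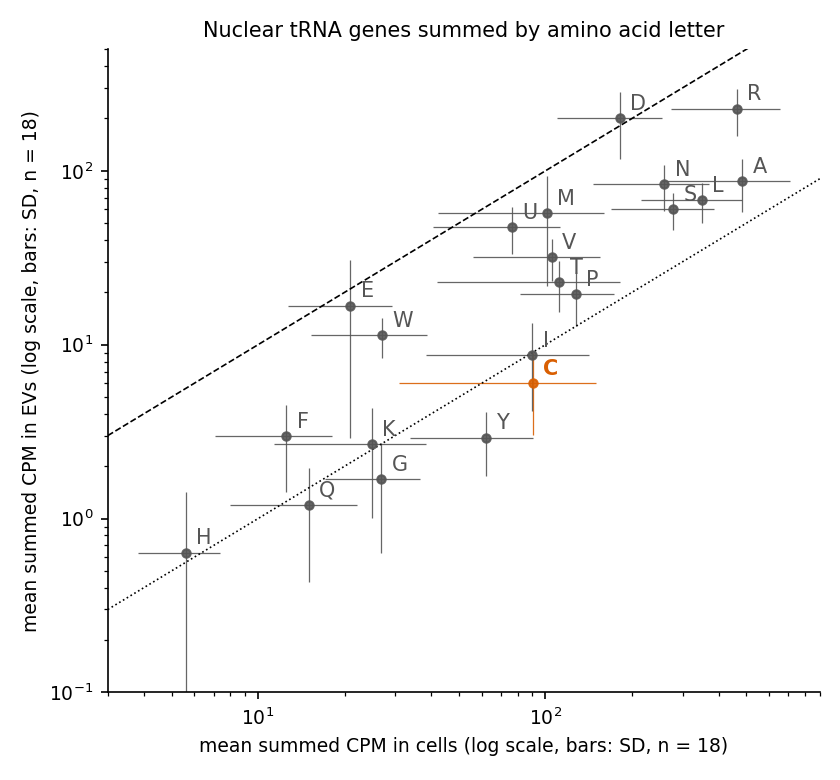
Mean summed CPM of nuclear tRNA genes in cells (horizontal axis) and EVs (vertical axis), both logarithmic, grouped by the one-letter amino acid code in their names (U is selenocysteine). Points are means of 18 libraries, bars are SD and are cut at the axis where they would pass 0, the dashed line marks equal levels and the dotted line a level 10 times lower in EVs. Cysteine (C, orange) lies at 90.2 CPM in cells and 6.01 CPM in EVs, under the dotted line.

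The mitochondrial cysteine tRNA, TrnC, is encoded separately and read here from mt-Tc (chrM:5192-5257, minus strand, 66 bases), with the anticodon again in capitals and at positions 29 to 31.
mt-Tc: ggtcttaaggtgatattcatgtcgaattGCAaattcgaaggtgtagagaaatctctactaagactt
It was lower in EVs as well. TrnC had 11.1 to 52.3 CPM in cells (median 18.9) and 0 to 2.05 CPM in EVs (median 0.586), without overlap, a log2 difference of -4.64 (SE 0.30, adjusted p = 1.75e-16).

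Genes that make, modify and charge tRNAs were mostly lower in EVs too. Among all 17758 features tested, 43.7% were called lower and 38.1% higher, so the counts of the shorter lists say little by themselves. Of 21 RNA polymerase III and cofactor genes tested, 15 were lower and 2 higher (median log2 difference -0.85). Polr3d (-2.32) and Gtf3c3 (-2.19), a polymerase subunit and a part of the factor TFIIIC that binds the promoter inside tRNA genes, were lower, and the 2 higher genes were Gtf3c4 (1.71), another TFIIIC subunit, and Brf1 (0.84), a part of the initiation factor TFIIIB. Of 18 tested genes for end processing and splicing, 16 were lower and 2 higher (median -1.59), with the lowest value at Trnt1 (-2.90), the enzyme that adds the CCA end. The 2 higher genes were Tsen54 (0.41), a subunit of the splicing endonuclease, and Rpph1 (0.77), the RNA of RNase P, whose mean was 4704 CPM in EVs (SD 1923) against 3908 CPM (SD 874) among cells.

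Of 12 tested modification enzymes 8 were lower and 1 higher (median -1.34), the latter being Wdr4 (2.09), a subunit of the enzyme for 7-methylguanosine. The cytosolic cysteinyl-tRNA synthetase gene Cars averaged 50.5 ± 12.6 CPM in cells against 23.4 ± 7.45 CPM in EVs (SD), a log2 difference of -0.58 with an adjusted p = 0.00046. Cars2, its mitochondrial counterpart, was lower by a similar value (-0.68). Both tested genes for nuclear tRNA export, Xpot (-1.25) and Xpo5 (-1.59), were lower, and so were 2 of 2 tested genes for tRNA cleavage or its inhibition, Rnh1 (-0.77) and Dicer1 (-0.65). The genes that were higher were named after their values were seen. None of these medians was as low as that of the cysteine tRNA loci, a description with no test.

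The next question was whether ethanol moved cysteine tRNA levels in cells. Both doses are set against the same control libraries. At 0 mg/dL the summed level in cells was 46.0 to 128 CPM (median 66.7, n = 6), at 120 mg/dL 60.4 to 145 CPM (median 67.0) and at 320 mg/dL 42.8 to 296 CPM (median 82.8). The ranges overlapped at all doses. Relative to its own control, a culture had 0.555 to 2.83 times the level at 120 mg/dL, higher in 3 of 6, and 0.566 to 5.75 times at 320 mg/dL, higher in 2 of 6. The high end of both ranges was the female culture of set 3, which had 51.4 CPM without ethanol, 145 CPM at 120 mg/dL and 296 CPM at 320 mg/dL. All nuclear tRNA genes together stood at 2083, 4327 and 7124 CPM in the same 3 libraries, and TrnC at 16.3, 45.1 and 52.3 CPM. The part of that general level in the cysteine values was not tested.

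No member passed the threshold in cells at either dose. At 120 mg/dL 0 of 6 tested members were called, with 0% of 18725 features called, and log2 fold changes lay between 0.0020 and 0.16. At 320 mg/dL it was again 0 of 6, with 0% of features called. None of the members had an unadjusted p under 0.05 at either dose, and DESeq2 also called 0. n-TCgca56 had 13.2 to 54.0 CPM (median 25) at 0 mg/dL and 14.8 to 141 CPM (median 33.1) at 320 mg/dL, a log2 difference of 0.42 (95% interval -0.46 to 1.29, adjusted p = 0.843 from edgeR). n-TCgca18 had 20.8 to 53.9 CPM (median 24.2) and 13.5 to 86.5 CPM (median 27.9), a difference of 0.22 (-0.45 to 0.88, adjusted p = 0.903). Without the female cell library of set 3 at 320 mg/dL the latter difference was -0.088. Both intervals hold 0.

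**Figure D4:**
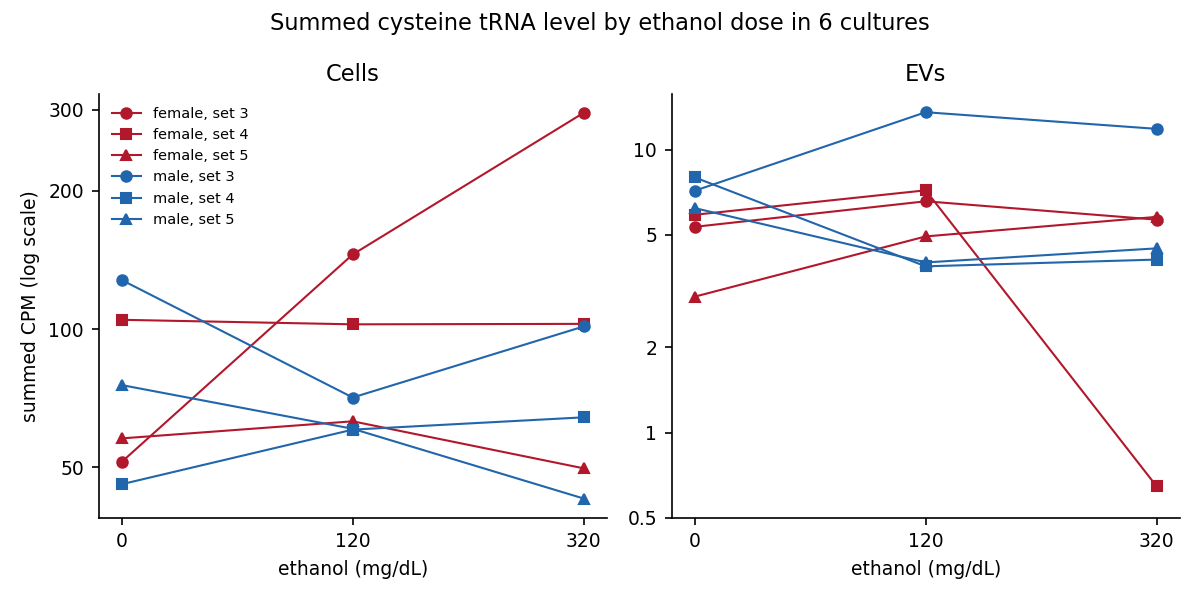
Summed cysteine tRNA CPM (vertical axes, logarithmic, with a scale of their own in each panel) at 0, 120 and 320 mg/dL ethanol (horizontal axis, evenly spaced) in cells (left) and EVs (right). Each line is 1 of 6 cultures, red for female and blue for male, with a marker for the pregnancy set. The female culture of set 3 reaches 296 CPM in cells, and the female culture of set 4 falls to 0.646 CPM in EVs, a single count.

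In EVs the summed level was 3.02 to 7.98 CPM at 0 mg/dL (median 6.05, n = 6), 3.87 to 13.6 CPM at 120 mg/dL (median 5.75) and 0.646 to 11.8 CPM at 320 mg/dL (median 5.07). Cultures had 0.485 to 1.89 times their control level at 120 mg/dL, higher in 4 of 6, and 0.110 to 1.91 times at 320 mg/dL, higher in 3 of 6. Only n-TCgca18 had enough counts to be tested. It had 2.67 to 7.15 CPM at 0 mg/dL, 2.17 to 10.4 CPM at 120 mg/dL and 0.646 to 8.10 CPM at 320 mg/dL. Its log2 difference was 0.19 at 120 mg/dL (95% interval -0.31 to 0.68, adjusted p = 0.964) and -0.085 at 320 mg/dL (-0.59 to 0.42, adjusted p = 0.973).

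These were 0 of 1 members called at either dose, with 0.00758% of 13193 features called at 120 mg/dL and 0.0758% at 320 mg/dL (0.0606% lower and 0.0152% higher). The member had no unadjusted p under 0.05, and DESeq2 gave it no adjusted p. The sign at 120 mg/dL turned with the scaling, to -0.10 with library totals. n-TCgca57 had counts in EVs at 320 mg/dL alone, 1 in each of 3 libraries, too few to compare.

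The ratio of EVs to cells was tested for a change with dose directly, as the difference between the ethanol effects in both compartments. Of 5 tested members 0 were called at 120 mg/dL, with 0.00438% of 22854 features called, and 0 of 5 at 320 mg/dL, with 0% called. The numbers with an unadjusted p under 0.05 were 0 and 0, and DESeq2 called 0. For n-TCgca18 the log2 difference was 0.030 (95% interval -0.96 to 1.02) and -0.34 (-1.36 to 0.68). For n-TCgca56, with 3 to 6 counts in EVs per dose, the intervals were wider, -1.59 to 2.98 and -3.06 to 2.47. n-TCgca57 had no EV count at 0 or 120 mg/dL, so its test at 120 mg/dL could not call a change. At 320 mg/dL it had 3 EV counts. Only n-TCgca18 passed the filter in EV libraries alone, so the missing calls of the other members say little.

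The comparison of sexes asked whether female and male cultures differed in the same loci. In cells the summed level was 49.8 to 296 CPM in females (median 102, n = 9) and 42.8 to 128 CPM in males (median 64.3, n = 9). The ranges overlapped. All 5 tested members had higher fitted levels in females, by log2 differences of 0.50 to 1.08, and 0 of 5 were called, with 5.7% of 18048 features called (2.51% lower and 3.19% higher in females). An unadjusted p under 0.05 was reached by 3, n-TCgca57, n-TCgca54 and n-TCgca51, and DESeq2 called 0.

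n-TCgca57 came closest to the threshold in cells. It had 3.86 to 29.2 CPM in female cells (median 10.8) and 2.67 to 9.39 CPM in male cells (median 5.26), a log2 difference of 1.08 (95% interval 0.30 to 1.87, adjusted p = 0.117). The pregnancies did not share a direction. In set 4 the female cells had 10.8 to 14.0 CPM and the male cells 2.67 to 4.66 CPM, whereas in set 5 the female cells had 3.86 to 5.83 CPM and the male cells 5.26 to 7.39 CPM. n-TCgca54 had a median of 10.7 CPM in females and 9.42 CPM in males (log2 difference 0.70, adjusted p = 0.195), and n-TCgca51 2.58 and 1.56 CPM (0.92, adjusted p = 0.201). The median log2 difference of the 5 was 0.86, that of 195 other tested nuclear tRNA genes 0.53, with 10 higher in females and 0 lower, and that of all features -0.0051. Without the female cell library of set 3 at 320 mg/dL, the log2 differences of the 5 were 0.16 to 0.69, with adjusted p = 0.290 to 0.816 from edgeR. With the 3 doses of a culture added, which leaves 3 female and 3 male cultures, 0 of 8 members were called. The share of all features called in that fit is not given here, so the count says little by itself.

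In EVs n-TCgca18 was the only member that could be tested. Female EVs had 0.646 to 6.15 CPM (median 3.47, n = 9) and male EVs 2.40 to 10.4 CPM (median 4.74, n = 9), with wide overlap. The log2 difference was -0.46 (95% interval -0.99 to 0.077, adjusted p = 0.253), 0 of 1 members called where 12% of 12252 features were called (4.45% lower and 7.59% higher in females). The male EVs of set 3 gave the highest values, 7.15, 10.4 and 8.10 CPM, against 2.67, 4.24 and 3.53 CPM in the female EVs of that set.

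The estimated sex difference in n-TCgca18 thus had opposite signs in both compartments, with median CPM higher in females in cells (26.5 against 24.4) and lower in EVs. Neither was called, and both 95% intervals held 0. In cells the log2 difference was 0.50 (95% interval -0.17 to 1.17). The difference between the compartments was tested directly, and it was -1.14 on the log2 scale (95% interval -1.82 to -0.46, unadjusted p = 0.00286 from edgeR). After adjustment it missed the threshold (adjusted p = 0.0777). The doses of a culture count as independent in this test, so its interval may be too narrow and its p-values too small. Leaving out a pregnancy gave -1.36 to -0.60, the latter without set 3. Of 5 tested members 0 were called, with 1.89% of 22854 features called (0.827% lower and 1.06% higher), and 1 had an unadjusted p under 0.05. DESeq2 called 0. For the other 4 members the 95% intervals all held 0, but none of them passed the filter in EV libraries alone. n-TCgca57 had 1 count in female EVs and 2 in male EVs.

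**Figure D5:**
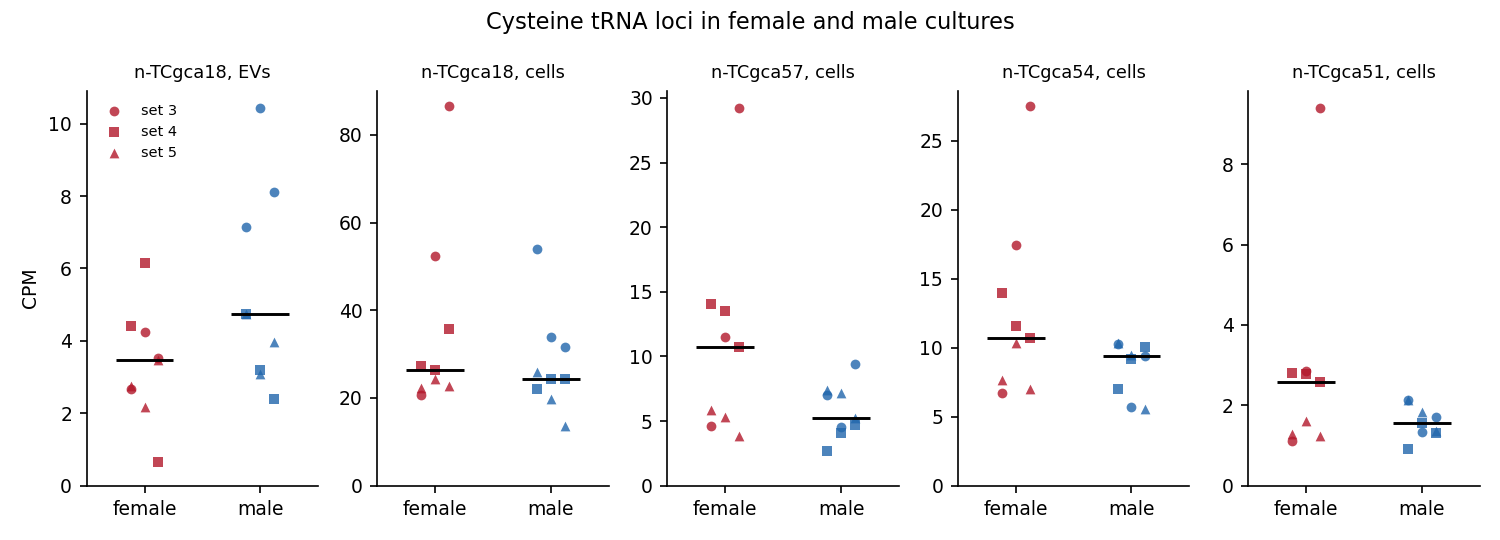
CPM (vertical axes from 0, with a scale of their own in each panel) of n-TCgca18 in EVs and of n-TCgca18, n-TCgca57, n-TCgca54 and n-TCgca51 in cells, for female and male cultures. Points are the 9 libraries of a sex, the marker gives the pregnancy set, and bars are medians. The highest female point in each cell panel is the set 3 library at 320 mg/dL, with 29.2 CPM for n-TCgca57.

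Among the genes that make, modify, charge, export or cleave tRNAs, none was called at either dose in EVs or cells, nor between the sexes in cells. Of all features, at most 0.0758% were called at a dose and 5.7% between the sexes in cells. In EVs 2 of 21 tested polymerase III and cofactor genes were lower in females, Brf1 (log2 difference -0.43) and Polr3f (-0.65), a polymerase III subunit. Of 9 tested modification enzymes, Wdr4 (-0.53) was lower in females and Pus7 (0.53), a pseudouridine synthase, was higher. The remaining lists had no call. Among all 12252 features tested in EVs, 12% were called, so these calls say little by themselves.

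Median levels also differed by pregnancy, a description with no test. In cells n-TCgca56 had medians of 51.3 CPM in set 3, 33.1 CPM in set 4 and 20.9 CPM in set 5 (n = 6 each), and n-TCgca18 had 43.1, 25.5 and 22.5 CPM. In EVs n-TCgca18 had medians of 5.70, 3.80 and 3.28 CPM in the same order, while their ranges overlapped. With the pregnancy as a block, 0 members were called for sex in either compartment, a count given without the share over all features.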

How the data were processed

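RNA was sequenced from 18 EV and 18 cell samples after depletion of ribosomal RNA, in stranded libraries. Reads were trimmed and deduplicated by the authors with SeqSense and Trimmomatic, aligned to mm39 with STAR and counted with HTSeq. The deposited values are the resulting whole counts per gene, made by the authors without normalization. The strand setting, the annotation and the treatment of reads with several alignments are not given in the sources used here. The libraries were not made for tRNA, whose modified bases and fold can hinder reverse transcription, and their effect on these counts was not tested.

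All features entered the tests, made with edgeR 4.0.16 under R 4.3.3: filterByExpr (minimum count 10, minimum total 15), TMM scaling, quasi-likelihood F tests and Benjamini-Hochberg adjustment with a threshold of 0.05. Printed fold changes are TMM-scaled, whereas CPM values and their ratios use library totals. The SE of a fold change is its absolute log2 value divided by the square root of the F statistic. Intervals of fold changes use a normal quantile of that SE, so they may be too narrow. The test of EVs against cells held sex and dose as covariates, that of doses the culture as a block, that of sexes dose as covariate, and those of ratios were interaction terms with the EV and cell pair as a block. The 3 libraries of a culture count as independent in the tests of location and sex, so their p-values may be too small. The same holds for the 3 EV and cell pairs of a culture in the test of the sex difference between compartments. Deviations of libraries from the condition mean correlated at medians of 0.594 in cells and 0.198 in EVs between doses of a culture (over 0.1 in 18 of 18 and 17 of 18 pairs), and at 0.0684 between the EV and cell library of a pair. For the female and male of a pregnancy the medians were 0.329 in cells and 0.0975 in EVs. No replicates agreed within sampling noise.

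Exact intervals used scipy 1.17.1, and drawings matplotlib 3.10.9. The tests were run on simulated counts drawn without a culture effect, which cannot check the treatment of a culture's doses as independent. The members and lists were chosen with earlier results of these data known. The text names all members with counts, and of other lists at most 3 genes past the threshold by size. RefSeq positions (GRCm38.p6) served for neighbouring and overlapping genes only, with 389 of 395 nuclear tRNA rows found by symbol. Members of the long array were not matched to single sequences. Alternatives were DESeq2 1.42.0, other scalings, no filter, thinning, blocks, control libraries, counts summed over doses and leaving out each pregnancy. Leaving out 1 cell library, or the 6 shallowest EV libraries, was added after seeing the data.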

Additional observations from a re-analysis of the deposited data

Results flagged for a closer look

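In 58 sets of a locus or the sum with 6 libraries of a dose or 9 of a sex, 18 had a highest library set apart by more than Dixon's 95% limit. Chance flags about 1 in 20 sets, and the sets share libraries.

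Of these, 11 concerned the female cell library of set 3 at 320 mg/dL. Its summed level was 296 CPM, against 103 CPM for the next cell library at that dose and 145 CPM for the next female one. n-TCgca56 stood at 141 CPM there, n-TCgca18 at 86.5, n-TCgca57 at 29.2, n-TCgca54 at 27.6 and n-TCgca51 at 9.41 CPM, each apart from the other cell libraries at 320 mg/dL, and all but n-TCgca54 apart from the other female ones. The male cell library of set 3 without ethanol stood apart for n-TCgca18, at 53.9 CPM.

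Among EVs, of the male libraries of set 3, that at 120 mg/dL stood apart with a summed 13.6 CPM and with 3.13 CPM of n-TCgca54, and that at 320 mg/dL with 3.11 CPM of n-TCgca54. For n-TCgca57 a single count set apart the female EV library of set 5 at 320 mg/dL (0.386 CPM) and the male one of set 3 at that dose (0.623 CPM). These EV values rest on 1 to 13 counts.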

How the results depend on the processing

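Of 13 alternatives for EVs against cells, all members called were lower. The count of 5 became 8 without a filter on low counts, where n-TCgca47, n-TCgca52 and n-TCgca53 entered the test, while DESeq2 also tested 8 and called 5. It became 2 with libraries thinned to the smallest total of 959217 counts, where only n-TCgca18 and n-TCgca56 could be tested. With the EV and cell pair as a replicate block it was 5, with counts summed over doses and a culture block 7, and in control libraries alone 4, without n-TCgca51 (log2 fold change -1.43). n-TCgca57 was at -5.58 with DESeq2 and at -10.1 in control libraries alone, where its EV counts were all 0. The blocked fits changed no other call. In the other comparisons 79 of 79 alternatives gave 0 called members, replicate block and no replicate block among them. That count says little by itself. With the main settings only 1 member could be tested for dose and sex in EVs, and 0% of features were called for dose in cells. The share of all features called in each alternative is not given here.

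The EV level as a share of the cell level was 23.1% on the basis of all nuclear tRNA counts, against 8.14% by library total, an alternative that scales each compartment by its own tRNA counts. Leaving out a pregnancy or the female cell library of set 3 at 320 mg/dL gave 7.78 to 8.59%, and 5 called members throughout for EVs against cells. For n-TCgca18 the log2 difference at 120 mg/dL in EVs was -0.10 with library totals, and -0.12 to 0.38 with a pregnancy left out. At 320 mg/dL it was -0.22 to 0.14 in EVs and -0.088 to 0.53 in cells, and for n-TCgca56 in cells -0.081 to 0.92. The cause was not tested.

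Depth limits the EV values: over all EV libraries n-TCgca56 had 13 counts and n-TCgca57 had 3, and n-TCgca18 was the only member past the filter for dose and sex in EVs.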
